A study of Homo sapiens with 22 samples.

Results

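The regions described here are those that an antibody against the transcription factor ETS1 pulled down in TC-32 cells, with and without depletion of the fusion protein EWSR1::FLI1. They came from 4 peak lists, 2 of control cells and 2 of FLI1-depleted cells, on chromosomes 1 to 22 and X. Intervals of the 4 lists that shared at least 1 bp were merged, which gave 2706 ETS1 regions, against 95115 regions when the lists of all 14 immunoprecipitated libraries of the series were merged in the same way. All libraries came from TC-32, 1 established line of Ewing sarcoma that carries this fusion. By reverse transfection the cells received 20 nM of control siRNA in the siNEG arm, or 20 nM of siRNA to FLI1 in the siFLI1 arm, where its purpose is to lower EWSR1::FLI1. The series asks how the fusion bears on ETS1. It holds no RNA or protein measurement, so the depletion itself could not be checked in these files.

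ETS1 belongs to the ETS family, whose DNA-binding domain recognises a GGAA core. Family members, GABPA among them, share sites at the promoters of genes that most cells use, and ETS1 often binds there together with partners such as RUNX factors, AP-1 factors or SP1. The fusion EWSR1::FLI1 carries the DNA-binding domain of another ETS protein, FLI1, and is known for binding tandem GGAA repeats in addition to isolated sites.

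The sequences below are 101-bp windows centred on the summit of a region, from hg38, read along the strand of the named gene. Those of the first group are among the strongest ETS1 regions and hold no ETS site, defined here as CCGGAAG or CCGGAAA on either strand. Capitals mark the GGAA core on either strand. CDCA7, KMT2A and CDC40 held ETS1 in all 4 lists, and ATXN2L held it in both siFLI1 lists and neither siNEG list.
CDCA7, chr2:173354675-173354775, plus strand: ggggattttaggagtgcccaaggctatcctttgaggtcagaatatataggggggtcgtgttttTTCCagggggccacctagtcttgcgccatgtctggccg
KMT2A, chr11:118436273-118436373, plus strand: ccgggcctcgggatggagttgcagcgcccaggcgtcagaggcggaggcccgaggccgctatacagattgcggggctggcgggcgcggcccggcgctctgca
CDC40, chr6:110180261-110180361, plus strand: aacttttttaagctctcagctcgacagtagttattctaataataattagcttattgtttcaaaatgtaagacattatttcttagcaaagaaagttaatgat
ATXN2L, chr16:28822868-28822968, plus strand: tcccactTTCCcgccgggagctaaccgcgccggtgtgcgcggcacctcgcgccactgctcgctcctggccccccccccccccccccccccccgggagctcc

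The second group are 5 of the 8 strongest regions of both siFLI1 lists that do hold an ETS site, which is in capitals. Where the window ran into an annotated untranslated region only 29 bp are shown. ZNF384, NLK and FBXO11 held ETS1 in all 4 lists, SLC25A17 in both siFLI1 lists and siNEG replicate 1, and NAA60 in the siFLI1 lists only. These were chosen after their values were seen, because none of the regions picked by rank below held an ETS site.
ZNF384, chr12:6689357-6689385, minus strand: ctgcagcaccaCTTCCGGgtgagtgcaag
SLC25A17, chr22:40819377-40819405, minus strand: cgccccgcgacCCGGAAGtggttctaggg
NLK, chr17:28041527-28041627, plus strand: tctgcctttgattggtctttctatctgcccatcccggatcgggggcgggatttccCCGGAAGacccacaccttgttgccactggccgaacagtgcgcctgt
FBXO11, chr2:47906567-47906667, minus strand: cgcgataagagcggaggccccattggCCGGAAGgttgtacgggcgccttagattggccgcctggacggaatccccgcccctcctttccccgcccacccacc
NAA60, chr16:3457694-3457794, plus strand: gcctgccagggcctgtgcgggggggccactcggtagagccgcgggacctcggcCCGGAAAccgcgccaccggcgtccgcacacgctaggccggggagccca

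The siFLI1 lists were not independent of each other. A summit height, the number of sequenced tags stacked over a summit, was recovered for every peak from the deposited fold and −log10 p. Over 496 regions the heights of the siFLI1 lists differed by less than counting noise: chi-square divided by its degrees of freedom was 0.417, where 1 is the noise level. The siNEG pair gave 0.820 over 79 regions, and pairs across the arms gave 1.28 to 1.96. The peak names inside the list labelled siFLI1 replicate 1 carry the number 2, and its shortest interval was 275 bp against 155 to 170 bp in the other ETS1 lists. The siFLI1 arm therefore counts as 1 sample (n = 1), and values are also given without the list labelled replicate 1. Estimated depths, which rest on assumed peak-caller settings, lay between 21.6 M and 28.9 M tags (M, 1000000). Of 8 Ewing cell markers, among them NKX2-2 and CCND1, 8 carried H3K4me3, a mark of promoters, in all 4 H3K4me3 lists, while 11 of 13 markers of other cell types had none. The other 2 of the 13 carried it in all 4 lists, as did 12137 of all 19970 protein-coding genes.

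More ETS1 regions were called in FLI1-depleted cells, and nearly everything called in control cells was called there too. The siNEG lists held 302 and 208 regions and the siFLI1 lists held 1633 and 2635, so the arms did not overlap. Of the regions of siNEG replicate 1, 94.7% overlapped a peak of siFLI1 replicate 2, while 10.8% of the latter overlapped the former. The log2 ratio of region numbers was 3.05, against an SD of 0.38 between the siNEG replicates (n = 2). An exact permutation test over samples (two-sided) gave p = 0.33, the smallest value that 3 arrangements allow, so no difference between the arms could pass a threshold of 0.05. The labels do not say whether replicates were separate transfections, and the p-value measures only the spread between these libraries. Without siFLI1 replicate 1 the log2 ratio was 3.39.

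The gap in region number held at a common threshold but narrowed for the tallest summits when counted by height per M tags. At a deposited −log10 p of at least 20 the siNEG lists held 87 and 59 regions and siFLI1 replicate 2 held 538, which is 7.37 times the siNEG mean. At a −log10 p of at least 10 the ratio was 8.33, and at 15 it was 6.59. At 30 it was 6.84, with 188 regions against 30 and 25. Counted by height per M tags, siFLI1 replicate 2 held 6.09 times the siNEG mean at 1 tag per M or more. At 3 tags per M or more the lists held 6 and 7 regions in siNEG and 12 in siFLI1 replicate 2, or 1.85 times. By height per M tags, regions with tall summits were thus nearer in number in the arms than regions with low summits.

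**Figure D1:**
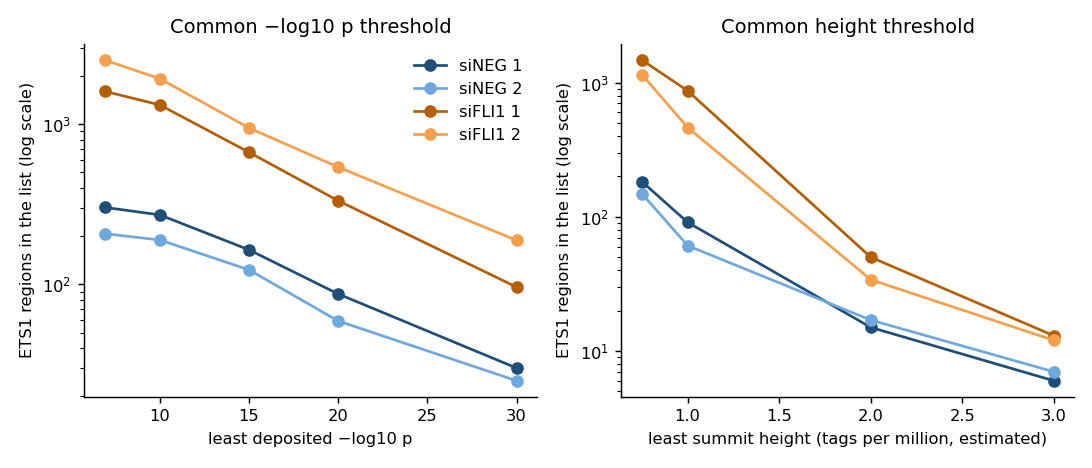
Number of ETS1 regions in each list (log scale) at 5 least values of the deposited −log10 p (left) and at 4 least summit heights in tags per M (right). The siFLI1 lists lie above the siNEG lists at every threshold, with 12 and 13 against 6 and 7 regions at 3 tags per M. The per-M values of siFLI1 replicate 1 rest on its longer assumed fragment.

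Merged across lists, 126 of the 2706 regions were present in all 4 lists, a background of 4.66% of all merged regions. Another 207 were in both siFLI1 lists and 1 siNEG list. A further 1190 regions were in both siFLI1 lists and neither siNEG list, which is 44% of all merged regions. The opposite pattern, both siNEG lists and neither siFLI1 list, was found for 2 regions, or 0.0739%. Regions in siFLI1 replicate 2 alone numbered 1034 and in replicate 1 alone 108. Without siFLI1 replicate 1, 2224 regions were in siFLI1 and neither siNEG list. When each list was cut to its 208 strongest peaks, the length of the shortest list, 42 regions were siFLI1-only, 30 were siNEG-only and 61 were in all lists, so these counts rest on list length.

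At the 126 regions of all 4 lists the summits were higher in FLI1-depleted cells. The median height was 30 tags in siNEG replicate 1, 25 in siNEG replicate 2 and 36.0 in siFLI1 replicate 2. Per M tags, siFLI1 replicate 2 was a median 1.44 times siNEG replicate 1 and higher at 117 of 126 regions, and it was 1.54 times siNEG replicate 2 and higher at 113. The siNEG replicates themselves had a ratio of 0.93. Among the 42 regions tallest in siNEG replicate 1 the ratio of siFLI1 replicate 2 to siNEG replicate 1 was 1.30, and among the 42 lowest it was 1.57. These ratios describe libraries: with 1 siFLI1 sample they have no replicate check, sorting by siNEG height alone spreads them in this direction, and the depth enters them directly.

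**Figure D2:**
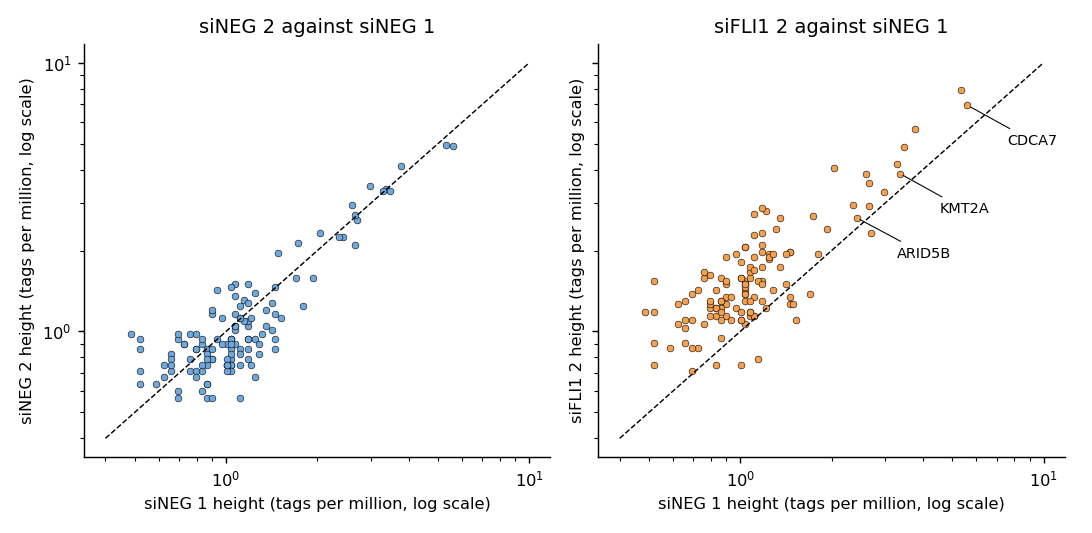
Summit height in tags per M (log scales) at the 126 regions of all 4 lists, siNEG replicate 2 (left) and siFLI1 replicate 2 (right) against siNEG replicate 1, with the dashed line at equal height. Most points of the right panel, 117 of 126, lie above the line, CDCA7 and KMT2A among them, while those of the left panel lie on both sides of it.

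The 10 strongest promoter regions among those of all 4 lists, which were chosen as held in both arms, are described by their heights. Other regions were as tall: at a ribosomal RNA repeat on chromosome 21, near RNA5-8SN1, siFLI1 replicate 2 alone had a summit of 141 tags, and reads of such repeated sequence cannot be placed with certainty. CDCA7, a gene linked to DNA methylation upkeep, had summits of 162 and 131 tags in the siNEG lists and 140 and 176 tags in the siFLI1 lists. KMT2A, which encodes a histone H3K4 methyltransferase of the trithorax group, had 97 and 90 tags in siNEG and 81 and 98 in siFLI1. RNF187, a ubiquitin ligase gene, had 154 and 132 tags in siNEG and 203 and 201 in siFLI1. Raw heights, which are not scaled for depth, overlapped between the arms at CDCA7 and KMT2A and did not at RNF187. Per M tags siFLI1 replicate 2 was above both siNEG lists at each gene: 6.95 against 5.61 and 4.92 at CDCA7, 3.87 against 3.36 and 3.38 at KMT2A, and 7.94 against 5.33 and 4.96 at RNF187.

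The TAF6/CNPY4 promoter, where TAF6 encodes a subunit of the general transcription factor TFIID, had 109 and 110 tags in siNEG and 113 and 143 in siFLI1. ARID5B, a gene of an ARID DNA-binding protein, had 70 and 60 against 61 and 67, which overlap as raw heights, while per M tags siFLI1 replicate 2 had 2.65 against 2.42 and 2.25. The WASF1/CDC40 promoter, which serves an actin regulator and a splicing factor, had 75 and 79 against 68 and 98, and SP2, a relative of SP1, had 68 and 60 against 79 and 75. RPL32, a ribosomal protein gene with 95 and 89 against 85 and 106 tags, and the non-coding gene ENSG00000290993, with 86 and 93 against 72 and 84, were also among the 10 strongest promoter regions of all 4 lists. At ENSG00000290993 the raw siFLI1 heights were the lower ones, and per M tags siFLI1 replicate 2 had 3.32, between the siNEG values of 2.98 and 3.49. The RPL32 summit lay 107 bp upstream of its TSS, outside the transcribed sequence. Its summit window holds the stretch tctattaaaaca, as does that of ENSG00000290993. Whether reads at these 2 regions were placed with certainty was not tested.

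The strongest promoter regions found in the siFLI1 lists only were lower than these. DNMT3B, a de novo DNA methyltransferase gene, had 44 and 46 tags in the siFLI1 lists. PRR12 had 43 and 39 tags, and BCL2L2, which encodes the anti-apoptotic BCL-w, had 41 and 43. SMARCA2, an ATPase gene of the BAF chromatin remodelling complex, had 36 and 39 tags, ASH1L, a trithorax-group methyltransferase gene, 49 and 42, and MTF1, the metal-responsive transcription factor gene, 43 and 36. The other 4 of the 10 strongest were ATXN2L with 38 and 38 tags, ELOC with 39 and 35, CCDC102A with 43 and 36, and the non-coding LINC01004 with 40 and 34. All 10 carried H3K4me3 in siNEG cells too, and all but DNMT3B carried H3K27ac, a mark of active promoters and enhancers, in both arms.

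Most siFLI1-only regions had low summits. In siFLI1 replicate 2, 571 of the 1190 (48.0%) reached 20 tags, 89 (7.48%) reached 30 and 12 reached 40, where the lowest summit called in a siNEG list had 13 tags. Of the 381 strongest of the 1523 regions in both siFLI1 lists, 57.2% were also in a siNEG list, against 3.15% of the 381 weakest. Of the 24 regions found only in siNEG lists, 14 were in replicate 1 alone, with at most 32 tags, and 8 in replicate 2 alone, with at most 54 tags, at a site 24614 bp from a TSS of EXD3. The other 2 were in both siNEG lists. That at the head-to-head MOB3A/IZUMO4 promoter (chr19:2096128-2096377, MOB3A being a kinase activator gene) had 23 and 18 tags in siNEG, and that at chr5:163624688-163624904, 12252 bp from the nearest TSS, had 25 and 22.

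The shares of promoter peaks and of CpG-rich promoters overlapped between the arms, and the share of head-to-head promoters did not. The share of peaks with a summit within 1 kb of a TSS was 91.7% and 88.0% in the siNEG lists and 91.3% and 88.5% in the siFLI1 lists, so the arms overlapped, and they differed by 0.051 points (two-sided p = 1, exact permutation over samples). Of promoter peaks, 91.3% and 89.1% in siNEG and 90.1% and 88.9% in siFLI1 were CpG-rich, meaning an observed-to-expected CpG ratio of at least 0.6 and a GC content of at least 55% around the TSS. The same share over 11439 protein-coding TSSs in H3K4me3 of all 4 lists, called marked TSSs below, was 84.2%. Head-to-head (divergent) promoters, where TSSs of different genes lie at most 1 kb apart on opposite strands, made up 32.9% and 30.1% of promoter peaks in siNEG and 27% and 26.5% in siFLI1, against 29.6% of marked TSSs. The siFLI1 shares were the lower ones, with a difference of -4.69 points (two-sided p = 0.33, exact permutation over samples). With TSSs at most 500 bp apart the difference was -1.67 points (exact permutation p = 0.67), and with protein-coding genes only it was also -1.67. When each list kept its 208 strongest peaks, the difference was -5.52 (exact permutation p = 0.67), and without siNEG replicate 1 it was -3.29.

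**Figure D3:**
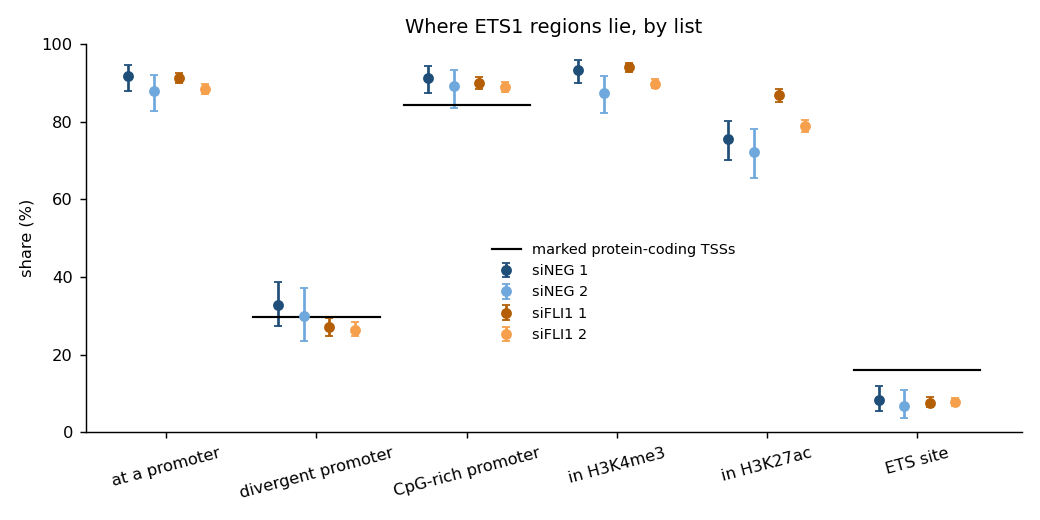
Share of ETS1 regions of each list (points, with exact 95% binomial intervals that cover counting error over regions only) at promoters, at divergent and CpG-rich promoters (of promoter peaks), in H3K4me3 and H3K27ac regions of the same arm, and with an ETS site within 50 bp of the summit. Black lines give marked protein-coding TSSs, and the ETS site shares of 6.73% to 8.28% lie under their 16.1%.

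The summits sat just upstream of the TSS. The median position was 86.5 bp upstream for promoter regions of all 4 lists, 75 bp for those in 1 siNEG list and 45 bp for siFLI1-only regions. Within 250 bp of a TSS lay 87.9%, 88.1% and 85% of them. A protein-coding TSS was within 1 kb for 94.8% of the promoter regions of all 4 lists and 95.9% of the siFLI1-only ones, and a long non-coding RNA had the nearest TSS at 12 of 116 and 152 of 1083.

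Chromatin marks were already present at siFLI1-only regions in control cells. Of the 1190, 93.9% overlapped H3K4me3 regions of siNEG cells and 94.0% those of siFLI1 cells. H3K27ac covered 80.3% of them in siNEG and 86.7% in siFLI1 cells. For the 126 regions of all 4 lists, the H3K27ac shares were 85.7% and 91.3%, so the share was higher in siFLI1 cells in both classes. Per list, 75.5% and 72.1% of siNEG peaks and 86.8% and 79.0% of siFLI1 peaks lay in H3K27ac of their own arm. The arms did not overlap, and siFLI1 was higher by 9.10 points of percent (two-sided p = 0.33, exact permutation over samples). The difference was 5.17 points without siFLI1 replicate 1 and 13.0 without replicate 2. It was 5.69 when the mark had to cover 50% of an ETS1 interval, and 14.2 both with the H3K27ac lists labelled with another antibody and with the 208 strongest ETS1 peaks. The siFLI1 arm also had more H3K27ac regions in both lists, 37778 against 33879, and the part of this number in the difference was not tested. Genes with ETS1 had wider H3K4me3 regions: in siFLI1 replicate 2 the median width was 4256 bp for genes in all 4 ETS1 lists, 3926 bp for siFLI1-only genes and 3204 bp for the 9088 marked genes with no ETS1.

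The share of ETS1 summits with an ETS site was below that of marked TSSs and close to that of the same positions at promoters without ETS1. It lay within 50 bp of 8.28% and 6.73% of summits in siNEG and 7.72% and 7.78% in siFLI1, so the arms overlapped (difference 0.243 points, two-sided p = 1, exact permutation over samples). Marked TSSs held it in 16.1% of windows of the same length. Because sites cluster near the TSS, 940 regions in both siFLI1 lists within 300 bp of a canonical protein-coding TSS were set beside the same positions at the 9088 marked promoters without ETS1. The shares were then 8.19% (exact 95% interval 6.52% to 10.1%) and 8.44%. By class the share was 5.88% of 85 regions in all 4 lists against 8.66% at the same positions, 9.22% of 141 regions with 1 siNEG list against 8.70%, and 8.26% of 714 siFLI1-only regions against 8.36%. The bare GGAA core was in 65.7% of windows, against 64.5% at the same positions.

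By rank, the share with an ETS site was 7.09%, 7.35%, 8.42% and 8.66% from the weakest to the strongest of 4 equal groups of the 1523 regions. The highest-ranked region with one was that at ZNF384, in place 21 of 1523, with 30 and 22 tags in siNEG and 50 and 52 in siFLI1. ZNF384 encodes a zinc finger transcription factor. Of the 100 highest-ranked, 6 held a site. SLC25A17, a peroxisomal carrier gene, had 16 tags in siNEG replicate 1 and 38 and 46 tags in siFLI1. NLK, a kinase gene of the WNT pathway, had 33 and 35 against 37 and 39, and FBXO11, a ubiquitin ligase gene, 18 and 20 against 33 and 32. The siFLI1 heights were the higher ones at each of these promoters, which were chosen by their rank in the siFLI1 lists. The site itself said little about which arm held a region: 22.4% of 116 promoter regions with a site and 22.2% of 1277 without one were also in a siNEG list.

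The shares of 3 other short motifs were set beside those at the matched positions, and each was higher at ETS1 summits. The GC box GGGCGG, the core of SP1 sites, was in 53.4% of the 940 windows against 39.8%, and the CCAAT box, bound by NF-Y, in 19.7% against 13.9%. By class the GC box was in 41.2% against 40.7% for regions of all 4 lists, 58.9% against 40.6% for those with 1 siNEG list and 53.8% against 39.5% for siFLI1-only regions. A run of CCCCCC, a pattern chosen after the sequences had been looked at and which can overlap a GC box, was in 36.6% (exact 95% interval 33.5% to 39.8%) against 8.11%. It is visible in the ATXN2L window, which has a long unbroken stretch of C. Per list the CCAAT box was in 23.2% and 21.6% of siNEG windows and 15.2% and 15.6% of siFLI1 windows, so the arms did not overlap (exact permutation test, two-sided p = 0.33). The GC box went the other way, with 45.7% and 43.8% in siNEG and 54.1% and 49.2% in siFLI1 (difference 6.92 points, two-sided p = 0.33 by exact permutation). With siFLI1 replicate 2 alone, at 49.2%, the difference was smaller. Within the regions of both siFLI1 lists the CCAAT share was 12.1% in the 381 weakest and 23.1% in the 381 strongest. Tandem GGAA repeats of at least 4 units within 1 kb were found at 1 and 1 siNEG peaks and at 3 and 5 siFLI1 peaks. As shares these were 0.331% and 0.481% of siNEG peaks and 0.184% and 0.190% of siFLI1 peaks, against 0.227% of marked TSSs. HMGN1 was the 1 such region of all 4 lists. Sites of NRF1 (GCGCATG), YY1 (AAGATGG) and the cAMP response element (CRE, TGACGTC or TGACGCA), searched on both strands, were below marked TSSs in every list without matching for position. NRF1 sites were at 0.662% to 1.92% of summits against 3.54%, YY1 sites at 0.962% to 2.65% against 5.60%, and CRE at 1.66% to 3.37% against 4.45%.

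**Figure D4:**
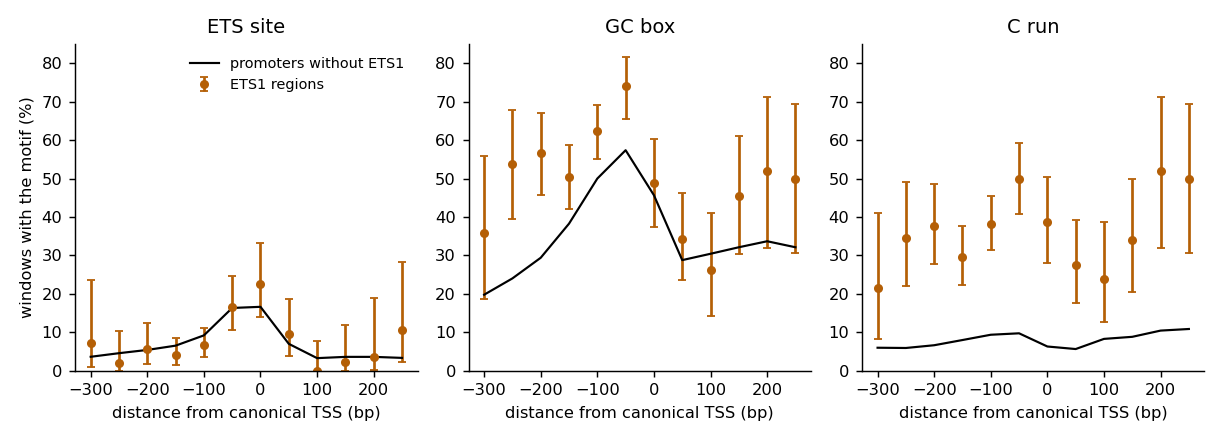
Share of 101-bp windows holding an ETS site, a GC box or a run of CCCCCC (C run), by distance from the canonical TSS in steps of 50 bp, for ETS1 regions of both siFLI1 lists (points, exact 95% binomial intervals) and marked promoters without ETS1 (black line). The ETS site points follow the line, while the C run points lie above it, at 50% against 9.7% at 50 bp upstream.

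Among the 12137 protein-coding genes with H3K4me3 at a TSS in all 4 H3K4me3 lists, 1503 held ETS1 at a TSS in both siFLI1 lists, a background of 12.4%. In at least 1 siNEG list it was 376 genes (3.1%), in both siNEG lists 141 (1.16%), and in all 4 lists 137 (1.13%). Genes held by both siFLI1 lists and neither siNEG list numbered 1153 (9.5%), and those held by both siNEG lists and neither siFLI1 list 2 (0.0165%). Over all 19970 protein-coding genes, with or without the mark, the shares were 7.61% for both siFLI1 lists, 1.92% for at least 1 siNEG list, 0.706% for both siNEG lists and 0.686% for all 4. They were 5.83% for both siFLI1 lists and neither siNEG list, and 0.01% for the reverse. The following groups are read against the shares of marked genes, with no test. The height given for a gene is that of its peak with the highest fold at any of its TSSs in a list, so lists may differ in which peak it is.

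Genes of chromatin regulators had a share above the background. Of 60 marked Polycomb, trithorax and histone acetylation genes, 27 (45%) held ETS1 in both siFLI1 lists and 11 in at least 1 siNEG list. ETS1 was also more frequent at genes with wide H3K4me3: in the widest of 4 equal groups of marked genes (from 4358 bp) 21.6% held it, and in the narrowest 5.21%. The median width of these 60 genes was 4018.5 bp, and the part of width in their share was not tested. JARID2, a Polycomb repressive complex 2 cofactor gene, had 18 and 21 tags in siNEG and 42 and 39 in siFLI1, the 18 tags lying in a region of their own. BRD2, a BET bromodomain gene, had 25 and 21 against 42 and 33. Both genes were named for their rank in the siFLI1 lists, which favours high siFLI1 values.

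CBX8, a Polycomb repressive complex 1 gene, was in 1 siNEG list with 19 tags and had 40 and 48 tags in siFLI1, MTF2 had 27 against 37 and 45, and the H3K4 demethylase gene KDM5A had 24 against 36 and 36. Acetyltransferase gene CREBBP had 31 and 36 tags in siNEG and 30 and 40 in siFLI1, or per M tags 1.07 and 1.35 in siNEG and 1.58 in siFLI1 replicate 2. Its paralog EP300 was in the siFLI1 lists only, with 15 and 15 tags. BMI1, RING1, KDM6A, EZH1, HDAC1 and HDAC2 were also in the siFLI1 lists only. Of 17 DNA methylation genes 5 (29.4%) held ETS1 in both siFLI1 lists, or 3 when only canonical TSSs were counted. DNMT1, the maintenance methyltransferase gene, had 23 and 21 tags in siFLI1 only. UHRF1, which brings DNMT1 to replicated DNA, had 20 and 26 in siNEG and 18 and 18 in siFLI1, as raw heights that are not scaled for depth. Of 29 BAF and PBAF genes 4 (13.8%) did, SMARCA2 and SMARCA4 among them, which is near the background.

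Partners of ETS1 and members of its own family also had shares above the background. Of 21 marked genes of ETS1 partners and cofactors, 10 (47.6%) held ETS1 in both siFLI1 lists and 6 in at least 1 siNEG list. CREBBP and EP300 are counted both here and among the chromatin regulators. JUND, an AP-1 factor gene, had 25 and 23 tags in siNEG and 27 and 28 in siFLI1. SP1 was in 1 siNEG list with 19 tags and had 33 and 26 in siFLI1, JUNB had 19 against 26 and 25, and JUN was in the siFLI1 lists only with 28 and 23. Within 250 bp of a TSS the count of this group was 6 of 21, against 1186 of all 12137 marked genes. Of 18 genes of the ETS family and of GABPA's partner subunits GABPB1 and GABPB2, which have no ETS domain, 6 (33.3%) held ETS1 in both siFLI1 lists. Without the partner subunits it was 4 of 16 (25%), 1 of them also in a siNEG list. The 6 were GABPA with 34 and 31 tags in siFLI1 only, ERF with 23 and 26 in siNEG and 32 and 32 in siFLI1, and GABPB2, GABPB1, ELF2 and ETV3. GABPA shares its promoter region with ATP5PF, a gene of ATP synthase, so that region is counted in both groups.

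**Figure D5:**
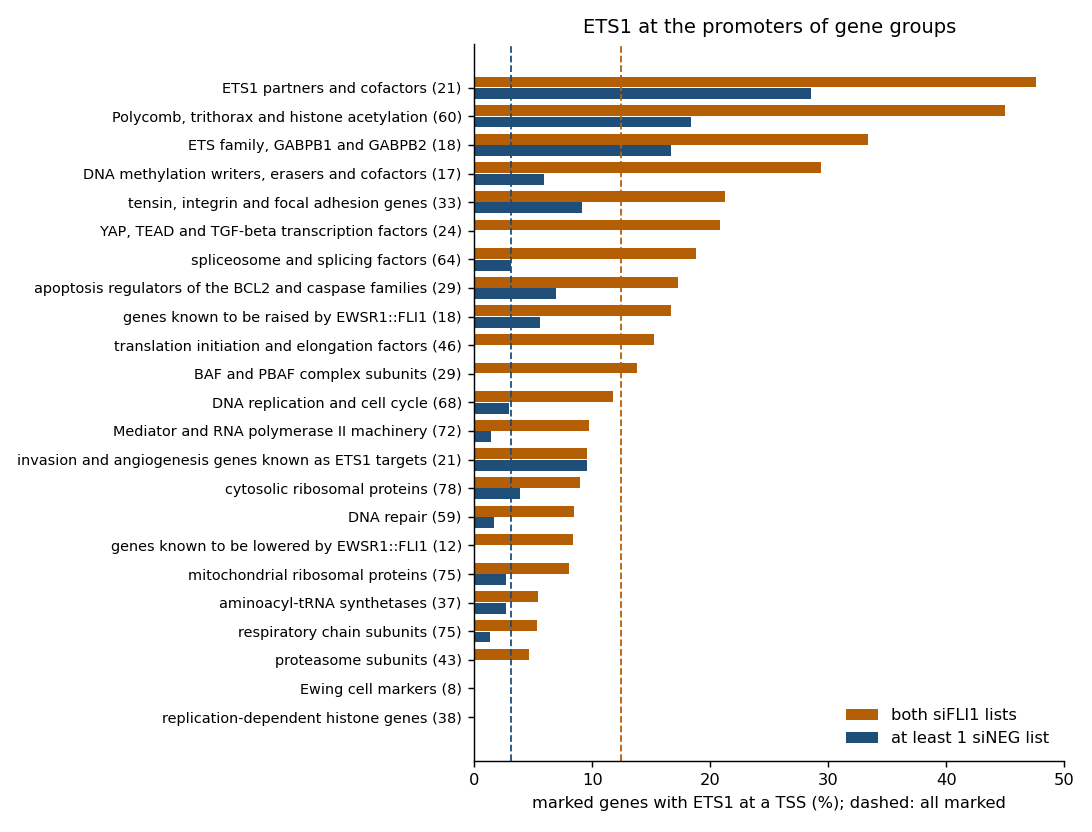
Share of marked genes (H3K4me3 in all 4 lists, number in brackets) of each group with ETS1 at a TSS in both siFLI1 lists and in at least 1 siNEG list, with the same shares over all 12137 marked protein-coding genes as dashed lines (12.4% and 3.1%). The chromatin regulator group, with 45%, and the ETS1 partners, with 47.6%, lie farthest to the right, and groups with fewer than 8 marked genes are not drawn.

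Groups tied to adhesion, invasion and the fusion were nearer to the background. Of 33 tensin, integrin and focal adhesion genes 7 (21.2%) held ETS1 in both siFLI1 lists. ACTN1, the actinin gene, had 37 and 22 tags in siNEG and 32 and 36 in siFLI1, ITGA5, a fibronectin receptor subunit gene, 24 in 1 siNEG list against 38 and 42, and ZYX, the zyxin gene, 29 and 31 in siFLI1 only. Of 21 invasion and angiogenesis genes known as ETS1 targets 2 (9.52%) did, TGFB1 with 15 and 17 tags in siNEG and 31 and 30 in siFLI1, and ITGA5. Of 18 genes that the fusion is known to raise, 3 (16.7%) did, GLI1 with 31 and 30 tags, ID2 with 19 and 19, and E2F3 with 34 and 28, the last also with 19 tags in 1 siNEG list. Of 12 that it is known to lower, FN1 did, with 30 and 28 tags. None of the 8 Ewing cell markers did, NKX2-2 and CCND1 each being in 1 siFLI1 list. Of 24 YAP, TEAD and TGF-beta pathway genes 5 (20.8%) did, TEAD4, SMAD5 and LATS1 among them. None of the 24 had ETS1 in a siNEG list, which is near the share of 3.1% over all marked genes.

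Housekeeping groups were mostly at or under the background of the siFLI1 lists. ETS1 in both siFLI1 lists was found at 12 of 64 spliceosome genes (18.8%), LSM5 with 22 tags in 1 siNEG list and 21 and 20 in siFLI1. It was found at 7 of 46 translation factor genes (15.2%), 8 of 68 DNA replication and cell cycle genes (11.8%), 7 of 72 Mediator and RNA polymerase II genes (9.72%) and 5 of 59 DNA repair genes (8.47%). Of 78 cytosolic ribosomal protein genes 7 (8.97%) held it, RPL6 and RPS26 among the 3 in all 4 lists. In both siNEG lists 3 of the 78 (3.85%) held ETS1, against 1.16% of marked genes. Both siFLI1 lists had it at 6 of 75 mitochondrial ribosomal protein genes (8.00%), 4 of 75 respiratory chain genes (5.33%) and 2 of 43 proteasome genes (4.65%). Apoptosis regulators stood at 5 of 29 (17.2%), BCL2L1 with 17 tags in 1 siNEG list and 32 and 36 in siFLI1. Aminoacyl-tRNA synthetase genes stood at 2 of 37 and replication-dependent histone genes at 0 of 38. Zinc finger genes named ZNF held it at 50 of 514 marked genes (9.73%).

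The genes at the centre of the series held little ETS1 themselves. No ETS1 region lay within 1 kb of a TSS of ETS1, FLI1 or EWSR1 in any list. At the ETS1 gene (chr11:128458761-128587558) H3K4me3 was present at a TSS in all 4 lists, whereas H3K27ac was present in both siFLI1 lists and neither siNEG list. FLI1 had H3K4me3 in all 4 lists and no H3K27ac at a TSS, and EWSR1 had both marks throughout. TNS3, which encodes a tensin of focal adhesions, held an ETS1 region (chr7:47537268-47537573) with its summit 95 bp from a TSS in both siFLI1 lists, with 21 and 20 tags, and in neither siNEG list. That region lay in no H3K27ac region of both lists of an arm, although another TSS of TNS3 carried the mark in both arms. Peak lists give presence above a threshold only, so absence from a siNEG list does not show that ETS1 was absent there.

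Few ETS1 regions lay away from promoters: 130 of the 1523 in both siFLI1 lists were over 1 kb from any TSS. Of these, 10 were in all 4 lists and 107 in the siFLI1 lists only. In siFLI1 cells 87.2% of the 1083 siFLI1-only promoter regions lay in H3K27ac and 98.1% in H3K4me3, and 8.31% held an ETS site. Among the 107 siFLI1-only regions away from promoters, 88 lay in H3K27ac and 57 in H3K4me3 regions of siFLI1 cells, and 3 held an ETS site. The strongest, 14750 bp from the TSS of LINC01563 (chr17:21099049-21099445), had 78 and 69 tags in siNEG and 55 and 59 in siFLI1, so that its raw siFLI1 heights were the lower ones, as was siFLI1 replicate 2 per M tags with 2.33 against 2.70 and 2.59. The next, 20797 bp from DNAJC5B, had 77 and 56 against 52 and 74 as raw heights, and per M tags 2.67 and 2.1 against 2.92 in siFLI1 replicate 2. A region 7996 bp from DOCK9 had 30 and 25 against 33 and 38. Those near ZNF579 and a signal recognition particle RNA copy were each in 1 siNEG list, with 39 tags against 41 and 51, and 16 against 36 and 29.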

How the data were processed

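Peak lists of TC-32 ChIP-seq libraries were used as deposited, 1 per library, and no reads were used. Per the submitters' processing notes, the tools named were cutadapt 4.4, BWA 0.7.17, Picard 2.17.11 and MACS2 2.1.1, and the builds GRCh38/hg38 and dm6, with no role or order. Whether a Drosophila spike-in was used for scaling is not given in the sources used here, and heights per M tags take no account of one. The deposited fold column holds, for each peak, the ratio of signal to local background that the authors' caller gave. The deposited −log10 columns hold its p-value and its q-value. The deposited score was not used. Fold values served to rank peaks within a list and to recover summit heights.

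Summit heights were solved from fold and −log10 p under the Poisson formulas of MACS2 and came out whole (within 0.05 tags) for 100% of peaks. Depths further assume a 2.7 Gb genome and a fragment as long as the shortest interval of a list. Height per M (1000000) tags is comparable only between lists of similar fragment length, so ratios and comparisons use siFLI1 replicate 2, and replicate 1 is only plotted and counted beside it. TSSs came from GENCODE release 44, all transcripts unless stated, and motifs and windows from hg38. Shares carry exact (Clopper-Pearson) 95% intervals, which cover counting error only. Arms were compared by exact permutation over 3 samples. Python 3.11.15, numpy 2.4.6, pandas 2.3.3, scipy 1.17.1, pysam 0.24.0 and samtools 1.23.1 were used, and the height, merging and motif steps were tested on simulated data.

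The rule for named regions took the 10 strongest promoter regions of all 4 lists and of the siFLI1-only class by fold percentile, every siNEG-only region, the 5 strongest over 1 kb from a TSS, up to 6 members of each of 24 gene lists, and ETS1, FLI1, EWSR1 and TNS3. Other genes named in the lists and the windows with an ETS site were chosen after their values were seen. The members and lists were chosen with earlier results of these data known. Input libraries were not analysed here. Some members of the named groups are not reported here.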

Additional observations from a re-analysis of the deposited data

Results flagged for a closer look

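Outside chromosomes 1 to 22 and X, 6 mitochondrial peaks and 1 contig peak were found in the list labelled siFLI1 replicate 1, while both siNEG lists and siFLI1 replicate 2 had none. They stand out because control lists had no such peak, and the comparisons did not use them.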

How the results depend on the processing

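The log2 ratio of region numbers kept its direction under every setting tried, from 2.70 to 3.39 when each list was left out and up to 3.62 by covered base pairs. Regions in both siFLI1 lists and neither siNEG list went from 1190 to 42 with the 208 strongest peaks of each list and 345 at a height of at least 1 tag per M (a setting added after seeing the data), and ranged from 1253 to 2224 when each list was left out. The siNEG-only count went from 2 to 30 and 1 under these settings and from 2 to 16 on leaving out lists, and the count in all 4 lists from 126 to 61 and 43, and from 126 to 270. The 270 and the 16 were without siNEG replicate 2 and the 2224 without siFLI1 replicate 1, and siNEG-only regions numbered 10 without siNEG replicate 1 and 5 without siFLI1 replicate 2. Differences of shares near 0 changed sign: for promoters to -0.485 within 250 bp, and from -1.82 to 1.92 percentage points on leaving out lists, and for an ETS site to -1.44 within 100 bp, -1.68 with the strongest peaks, and from -0.53 to 1.02. Leaving out lists moved the CpG-rich difference from -1.83 to 0.43 and that of H3K4me3 from -1.45 to 4.43. Of the 27 regions named by rank, 26 kept their pattern with the strongest peaks and 27 at a −log10 q of at least 3. No paired analysis was possible because the siFLI1 lists counted as 1 sample. Near the threshold a summit rests on 9 to 14 tags, and the part of depth in which of these regions were called was not tested.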
